A study of Mus musculus with 8 samples.

Results

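The endoplasmic reticulum (ER) folding machinery and the unfolded protein response were described through a list of 46 genes: the folding chaperones, the disulfide isomerases, the ER degradation pathway, the stress sensors, and the channel and enzymes that take in new proteins. The members were matched by gene symbol. All but Vimp were found in both deposited tables, which gave 45 genes of the 17642 in the CD8 T cell table and of the 18389 in the ILC2 table. Vimp is an older symbol of Selenos, which is itself a member, so the list held 45 distinct genes. RNA was measured by bulk sequencing in group 2 innate lymphoid cells (ILC2s, which lack antigen receptors and secrete cytokines such as interleukin-5 and interleukin-13) from mouse lung and in CD8 T cells from mouse spleen. All cells were primary and of the WT genotype. Each cell type was either cultured by itself, with the treatment given as untreated for the ILC2s, or kept with the other cell type at 5:1 for 3 days, and was then sorted by flow cytometry. Age, strain and the cell type in excess were not given in the sources used here. Each of the 4 groups had 2 libraries, and because nothing says that they came from separate cultures or animals, the p-values measure a spread between libraries that may be technical.

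Proteins that are secreted or sit in membranes enter the ER through the Sec61 channel, lose their signal peptide, receive sugar chains and disulfide bonds, and fold with the help of chaperones such as BiP, the product of Hspa5. When unfolded proteins build up, 3 sensors in the ER membrane respond: IRE1 (Ern1) splices the Xbp1 messenger RNA, ATF6 is cut and moves to the nucleus, and PERK (Eif2ak3) slows translation and raises ATF4. XBP1 and ATF6 act on chaperone and degradation genes, and lymphocytes that secrete much protein, such as plasma cells and cytokine-producing cells, are known for their use of this system. A gene-level count does not separate spliced from unspliced Xbp1.

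The libraries held 48072595 to 67076905 counted reads. The lowest count of any member was 26 reads, for Derl3 in a co-cultured CD8 T cell library. Levels are given as CPM (the read count scaled by the library total), in the order of replicates 1 and 2. Changes are log2 ratios of co-cultured over alone with their standard error (SE), from edgeR's quasi-likelihood test with TMM scaling, and a gene was called at a Benjamini-Hochberg adjusted p under 0.05 over all tested genes. The labels were checked against markers. The CD8 T cell libraries held Cd8a at 580 and 570.1 CPM alone and at 966 and 937 CPM co-cultured, and Il1rl1, the ILC2 receptor for interleukin-33, at 0.388 to 1.45 CPM. The ILC2 libraries held Il1rl1 at 738 and 856 CPM alone and at 2399 and 2084 CPM co-cultured. The ILC2 libraries labelled alone also held Cd8a at 249 and 258 CPM and the fibroblast collagen gene Col1a1 at 1068 and 1226 CPM, against 6.09 and 6.76 CPM and 0.64 and 0.312 CPM in those labelled co-cultured. The sorting gate is not given in the sources used here, and groups are called by their labels throughout. The RefSeq spans of Hspa5, Pdia3, Pdia6, Ppib, Syvn1, Derl2, Spcs1, Spcs2 and Atf6, introns included, overlap another protein-coding gene. How far their exons overlap was not examined, and the strand setting of the counting is not given. Any reads in shared sequence cannot be told apart from those of the neighbour.

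The promoters of classic members carry the ER stress response element, the sequence that ATF6 and XBP1 are known to act through. Its letters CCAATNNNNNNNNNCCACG were searched on both strands from 250 bases before to 50 bases after the RefSeq start (build GRCm38.p6), a window that 37 members and 27025 genes had. It lay in 9 members, or 24.3%, and in 0.137% of all genes. The second form, ATTGGNCCACG, lay in Dnajb11 and Herpud1, or 5.41% of members, and in 0.0444% of all genes. The letters TGACGTGG, a core that XBP1 is known to bind, were in none of the 37 member windows and in 0.714% of all genes. No matched stretch overlapped another. A match is a description of the letters and not of binding. The matches are shown because they mark the members with the textbook element, with the fixed letters in capitals and the sequence read on the strand that carries the element.
Hspa5, chr2:34772025-34772043: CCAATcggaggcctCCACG
Hsp90b1, chr10:86705638-86705656: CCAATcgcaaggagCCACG
Hsp90b1, chr10:86705533-86705551: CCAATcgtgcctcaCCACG
Calr, chr8:84847075-84847093: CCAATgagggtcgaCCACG
Canx, chr11:50325800-50325818: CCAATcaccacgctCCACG
Dnajc3, chr14:118937827-118937845: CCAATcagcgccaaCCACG
Pdia6, chr12:17266491-17266509: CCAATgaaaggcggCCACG
Creld2, chr15:88819520-88819538: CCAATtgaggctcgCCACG
Syvn1, chr19:6046532-6046550: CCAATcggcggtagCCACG
Derl3, chr10:75893242-75893260: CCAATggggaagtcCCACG
Herpud1, chr8:94386377-94386387: ATTGGgCCACG
Dnajb11, chr16:22857852-22857862: ATTGGcCCACG

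The 250 bases before the start are shown for a chaperone and a degradation gene that fell in CD8 T cells and differed between the cell types, and for the member with the largest fall. All 3 genes lie on the plus strand, and the element is in capitals. In Derl3 it runs on the opposite strand, so its reverse complement is seen.
Hspa5, chr2:34771840-34772089: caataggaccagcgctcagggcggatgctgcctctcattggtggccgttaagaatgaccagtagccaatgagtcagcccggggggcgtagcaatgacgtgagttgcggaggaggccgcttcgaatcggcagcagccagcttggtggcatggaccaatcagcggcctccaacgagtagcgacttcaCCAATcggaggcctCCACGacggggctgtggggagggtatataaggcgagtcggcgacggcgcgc
Herpud1, chr8:94386179-94386428: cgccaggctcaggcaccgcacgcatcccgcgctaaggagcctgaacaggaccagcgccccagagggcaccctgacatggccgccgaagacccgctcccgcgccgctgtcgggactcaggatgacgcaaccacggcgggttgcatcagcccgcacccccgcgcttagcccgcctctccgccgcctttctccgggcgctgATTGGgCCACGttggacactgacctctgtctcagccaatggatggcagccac
Derl3, chr10:75893148-75893397: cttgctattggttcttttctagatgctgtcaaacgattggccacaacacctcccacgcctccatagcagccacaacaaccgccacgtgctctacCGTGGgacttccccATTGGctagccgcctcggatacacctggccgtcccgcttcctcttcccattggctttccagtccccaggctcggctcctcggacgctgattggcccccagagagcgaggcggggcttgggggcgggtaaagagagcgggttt

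**Figure D1:**
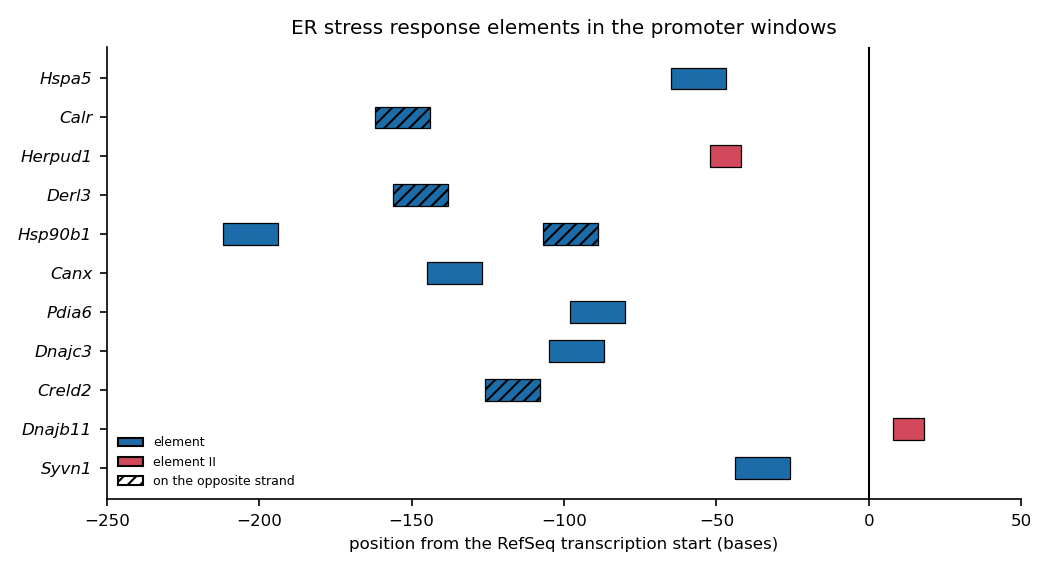
Positions of the ER stress response elements in the windows of 11 members, in bases from the RefSeq transcription start (vertical line); blue bars are the element, red bars its second form, and hatching marks the opposite strand. All lie before the start except that of Dnajb11, at 8 to 18 bases after it.

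Most of the ER folding genes were lower in the CD8 T cells labelled co-cultured than in those labelled alone. Of the 45 members 27 fell, 9 rose and 9 were not called, while over all tested genes 30.7% fell and 30.2% rose. With a change of at least 1.5-fold required as well, 18 members fell and 3 rose, against 20.1% and 18.9% of all genes. The median change of the members was -0.46, against -0.01 over all genes. In CPM, both co-cultured libraries lay below both alone libraries for 28 members and above them for 16, while this held for 37.1% and 44.1% of all tested genes. The members together held 11891 and 11863 CPM alone and 9783 and 9526 CPM co-cultured. The split was close to the same under every scaling of library size tried for CD8 T cells, with 27 or 28 members lower and 8 or 9 higher. With the length trend removed fewer rose, as given below. Over the same libraries 19 of 20 ribosomal protein genes fell, with summed levels of 14632 and 14205 CPM alone and 11099 and 11252 CPM co-cultured. The part of that shift in the members' fall was not tested.

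In ILC2s the members split: 15 rose, 12 fell and 18 were not called, where 31.8% of all tested genes rose and 34.4% fell. With at least 1.5-fold required, 6 rose and 9 fell, against 26.2% and 29.7% of all genes. The median change was 0.07, against -0.01 over all genes, and the summed level was 18953 and 18561 CPM alone and 18498 and 18127 CPM co-cultured. In CPM, both co-cultured libraries lay above both alone libraries for 15 members and below them for 23, while this held for 33.8% and 49.6% of all tested genes, so the members' shares were near those of all genes. The log2 changes carry the TMM factors, so they can differ from the CPM ratio, and this split depended on scaling. With library totals alone the median of all genes moved from -0.01 to -0.22, and 7 members rose and 19 fell. With all 8 libraries in 1 fit that median was -0.12, and 12 members rose and 19 fell. Scaled to the ILC2 identity genes, it was -1.15, and 2 members, Ern1 and Os9, rose and 42 fell. Without alone replicate 1, 9 members rose and 10 fell.

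Other cells' markers moved with the ILC2 comparison. Of 13 tested stroma and fibroblast genes 10 fell and 1 rose, and their summed level was 11083 and 11811 CPM alone and 1020 and 1027 CPM co-cultured. All 6 tested monocyte and macrophage genes fell, from 332 and 338 CPM to 19.3 and 25.1 CPM. Of 10 T cell genes 9 fell, from 1345 and 1296 CPM to 183 and 218 CPM, and of 10 tested B and plasma cell genes 5 fell and 2 rose, from 787 and 938 CPM to 436 and 393 CPM. The summed ILC2 identity genes were 5510 and 5485 CPM alone and 12958 and 12697 CPM co-cultured, with 16 of 19 tested genes higher and 2 lower. The part of these shifts in the ILC2 results was not tested, and fewer cells of a type cannot be told apart from less RNA per cell in bulk samples. Markers moved with the CD8 T cell comparison too, and their part in it was not tested. The lists are not exclusive to 1 cell type, as Thy1 is in both the T cell and the stroma list. The CD8 T cell libraries also held reads of 16 of the 20 listed ILC2 identity genes. A change in a sum, above or below, is therefore not by itself a measure of other cells, whose presence was not tested. Of 6 stroma genes tested 3 rose and 3 fell, with sums of 332 and 353 CPM alone and 154 and 161 CPM co-cultured. Of 6 B and plasma cell genes 3 rose and none fell, with sums of 47.7 and 51.1 CPM alone and 119 and 121 CPM co-cultured. Of 4 tested monocyte and macrophage genes 1 rose and 2 fell, and the 5 in the table summed to 19.3 and 17.8 CPM alone and 32.6 and 30.9 CPM co-cultured. Of 15 tested ILC2 identity genes 6 rose and 7 fell, and the 16 in the table summed to 1830 and 1872 CPM alone and 2435 and 2529 CPM co-cultured. Of 10 T cell genes 4 rose and 2 fell, with sums of 4230 and 4324 CPM alone and 5581 and 5421 CPM co-cultured.

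**Figure D2:**
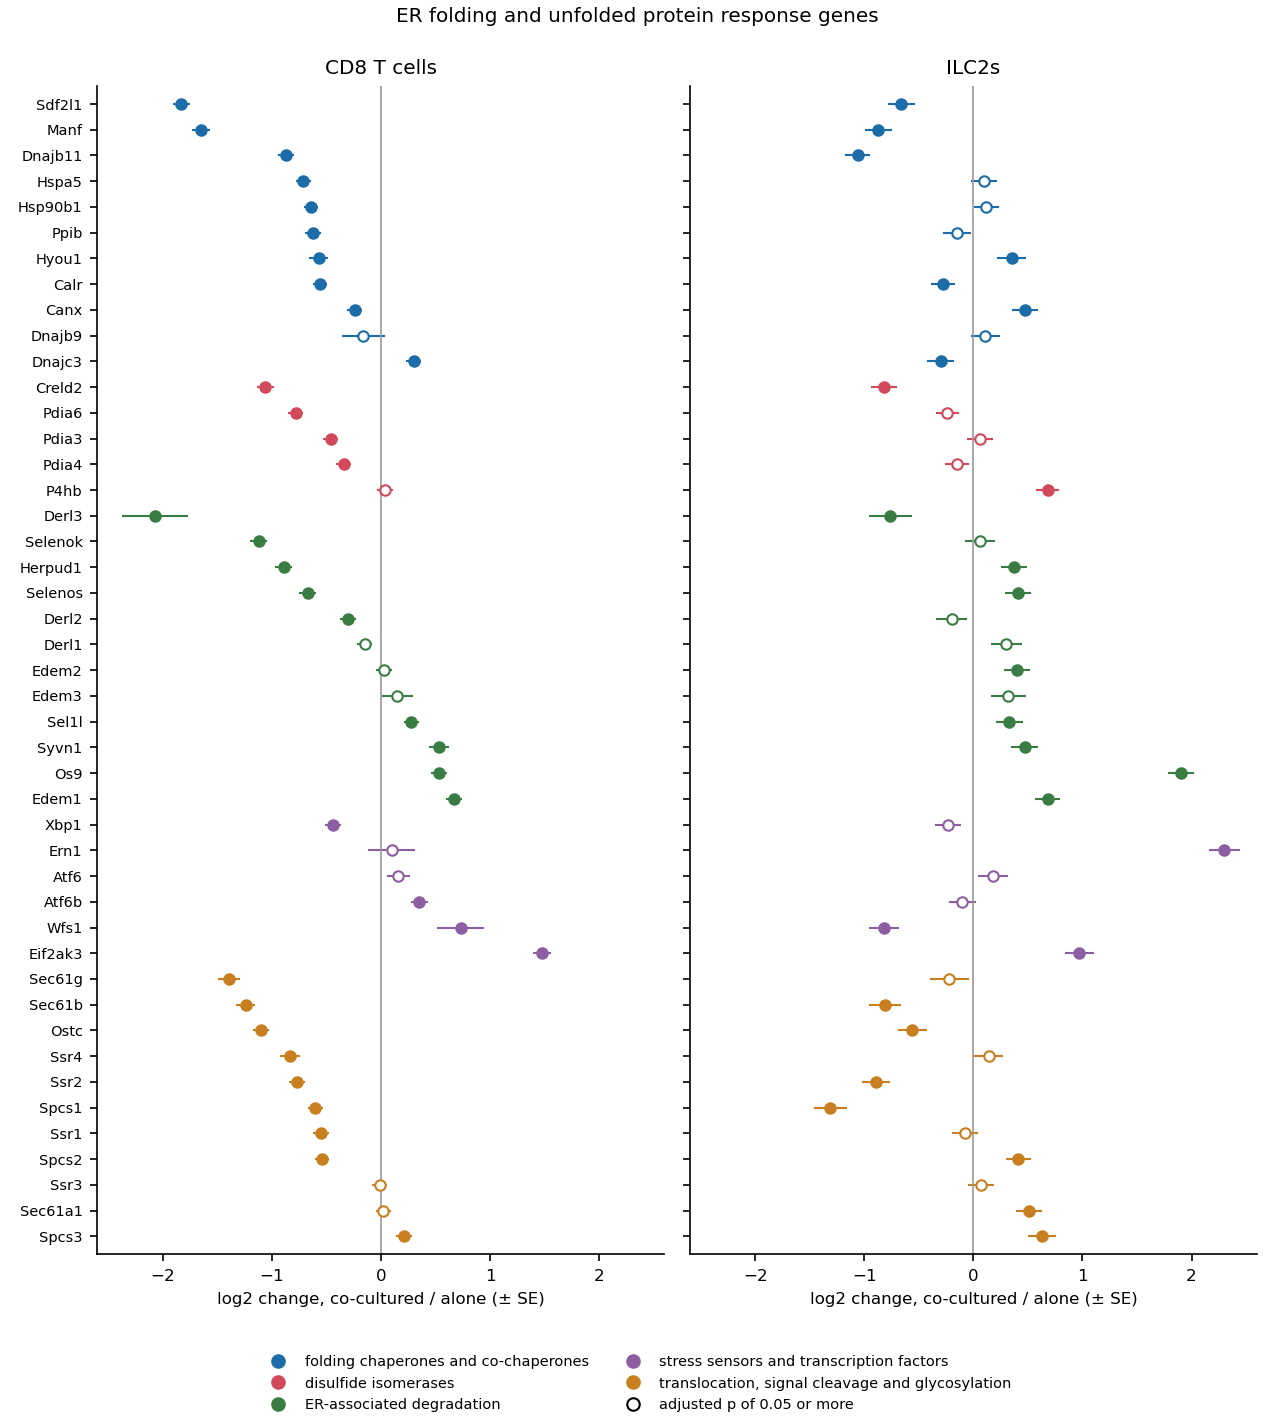
Log2 change of co-cultured over alone for the 45 members in CD8 T cells (left) and ILC2s (right), grouped by role, with SE bars; filled points passed the adjusted p threshold of 0.05 and open points did not. In CD8 T cells 27 members lie to the left of 0 and passed, and in ILC2s 15 passed to the right and 12 to the left.

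The counts by role stand beside 30.2% higher and 30.7% lower of all tested genes in CD8 T cells, and 31.8% and 34.4% in ILC2s. They were not tested against these shares. Folding chaperones and their partners gave 9 of 11 members lower and 1 higher in CD8 T cells, with a median change of -0.62. Hspa5 (chr2:34772090-34776529), whose product BiP is the main chaperone of the ER lumen, was at 1374 and 1380 CPM alone and at 928 and 856 CPM co-cultured. The groups did not overlap, and the fall was -0.71 ± 0.07 (SE, edgeR adjusted p = 2.0e-06). In ILC2s Hspa5 was at 2905 and 2501 CPM alone and at 2616 and 2373 CPM co-cultured. These groups overlapped, and the change of 0.10 ± 0.12 was not called (edgeR adjusted p = 0.47). Hsp90b1, the ER form of the HSP90 chaperone, followed the same order with 1295 and 1296 CPM against 876 and 885 CPM in CD8 T cells, a fall of -0.64 ± 0.07. In ILC2s it was at 2238 and 1978 CPM against 2061 and 1867 CPM, a difference of 0.12 that was not called.

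Co-chaperones and secreted partners of BiP had the largest falls of this role. Sdf2l1, which keeps clients of BiP soluble, was at 126 and 114 CPM alone and at 36.0 and 35.3 CPM co-cultured in CD8 T cells, a fall of -1.83 ± 0.08 (edgeR adjusted p = 2.3e-09). In ILC2s it fell from 100.3 and 107 CPM to 53.2 and 60.2 CPM, by -0.66 ± 0.12. Both groups were apart in each cell type. Manf, which binds BiP and can be secreted, fell from 158 and 142 CPM to 47.4 and 53.5 CPM in CD8 T cells, by -1.65 ± 0.09. In ILC2s it fell from 201 and 222 CPM to 92.7 and 107 CPM, by -0.87 ± 0.12. Dnajb11, a J-domain partner of BiP, fell from 175 and 164 CPM to 99.0 and 97.1 CPM in CD8 T cells, by -0.87 ± 0.07. In ILC2s it was at 268 and 259 CPM against 105 and 113 CPM, a fall of -1.06 ± 0.11 (edgeR adjusted p = 7.2e-06) and the largest of this role there.

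The lectin chaperones Canx and Calr, which hold glycoproteins during folding, fell in CD8 T cells by -0.24 ± 0.07 and -0.56 ± 0.07. In ILC2s Canx rose by 0.47 ± 0.12 and Calr fell by -0.28 ± 0.11. Hyou1, a nucleotide exchange factor for BiP, went the same ways as Canx with -0.57 ± 0.09 and 0.35 ± 0.13. Dnajc3, a co-chaperone that restrains PERK, was the reverse: it rose by 0.30 ± 0.07 in CD8 T cells and fell by -0.30 ± 0.12 in ILC2s. Ppib, a prolyl isomerase, fell in CD8 T cells by -0.62 ± 0.07 and was at -0.15 in ILC2s, uncalled. Dnajb9, a BiP partner, was not called in either. The role counted 2 higher and 5 lower of 11 in ILC2s, 0 and 6 with library totals alone, 1 and 6 with all 8 libraries in 1 fit, 2 and 3 with RLE or upper quartile scaling, and 0 and 11 scaled to the ILC2 identity genes. The ILC2 calls of Hyou1, Calr and Dnajc3 were each lost under several settings, and Canx lost its ILC2 call with library totals alone (0.25) and its CD8 call without co-cultured replicate 1 (-0.22).

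Of the 5 disulfide isomerases, which form and rearrange disulfide bonds, 4 fell and none rose in CD8 T cells. Pdia6 fell by -0.78 ± 0.07, Pdia3 by -0.46 ± 0.07, Pdia4 by -0.34 ± 0.07, and Creld2, an ER protein with isomerase activity, by -1.06 ± 0.08. P4hb, the classic isomerase of the family and a subunit of prolyl hydroxylase, was at 1014 and 1121 CPM alone and at 1196 and 1126 CPM co-cultured, and was not called (0.04 ± 0.08). In ILC2s P4hb rose from 1516 and 1620 CPM to 2148 and 2179 CPM, by 0.68 ± 0.11 (edgeR adjusted p = 1.6e-04), with no overlap. Creld2 was the only isomerase that fell in ILC2s, from 222 and 201 CPM to 97.2 and 109 CPM, by -0.82 ± 0.12. The ILC2 count of 1 higher and 1 lower became 1 and 3 with library totals alone or all 8 libraries in 1 fit, and 0 and 5 scaled to the ILC2 identity genes.

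ER-associated degradation, which draws misfolded proteins back to the cytosol for the proteasome, was split within itself in CD8 T cells: 4 of 12 members rose, 5 fell and 3 were not called. Its summed level was 1284 and 1292 CPM alone and 1436 and 1449 CPM co-cultured, and without Os9 it was 1093 and 1087 CPM alone and 1138 and 1140 CPM co-cultured. The risers were Edem1, Os9, Syvn1 and Sel1l, while Edem2, Edem3 and Derl1 were not called. Edem1, which trims mannose from misfolded glycoproteins, rose from 247 and 264 CPM to 421 and 436 CPM, by 0.67 ± 0.07 (edgeR adjusted p = 4.3e-06). Os9, a lectin that delivers them, rose from 191 and 205 CPM to 299 and 308 CPM, by 0.53 ± 0.07. Syvn1, the ubiquitin ligase HRD1, rose from 29.8 and 32.8 CPM to 45.0 and 50.2 CPM, by 0.53 ± 0.09, and its adaptor Sel1l by 0.28 ± 0.07.

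The degradation genes that fell in CD8 T cells were Derl3, Herpud1, Selenok, Selenos and Derl2. Derl3 (chr10:75893398-75895941), a Derlin of secretory cells, was at 1.98 and 1.86 CPM alone and at 0.393 and 0.567 CPM co-cultured. It had the largest fall of all members, by -2.07 ± 0.30 (edgeR adjusted p = 5.5e-05), from a low level. Herpud1, a ubiquitin-like ER membrane protein, was at 147 and 131 CPM alone and at 82.1 and 75.4 CPM co-cultured, a fall of -0.89 ± 0.08. Selenok, a selenoprotein bound to Derlins, fell by -1.12 ± 0.08, Selenos, which links Derlins to the ATPase p97, by -0.67 ± 0.08, and Derl2 by -0.30 ± 0.08.

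In ILC2s 7 of the 12 degradation genes rose, 1 fell and 4 were not called, and their summed level was 1742 and 1802 CPM alone and 2848 and 2821 CPM co-cultured. Most of that difference was in Os9: the other 11 genes summed to 1325 and 1425 CPM alone and 1542 and 1581 CPM co-cultured. Os9 (chr10:127094259-127121160) was at 417 and 377 CPM alone and 1306 and 1241 CPM co-cultured. Its rise was 1.9 ± 0.12, or 3.73-fold (edgeR adjusted p = 8.6e-08), and it stayed higher when scaled to the ILC2 identity genes, at 0.76. Edem1 rose from 320 and 332 CPM to 467 and 434 CPM, by 0.68 ± 0.12. Herpud1 rose from 109.9 and 118 CPM to 125 and 130.2 CPM, by 0.37 ± 0.12, without overlap, but was not called with library totals alone (0.16), with all 8 libraries in 1 fit (0.22) or without alone replicate 1 (0.32). Syvn1 rose by 0.47 ± 0.12, Selenos by 0.41 ± 0.12, Edem2 by 0.40 ± 0.12 and Sel1l by 0.33 ± 0.13. With library totals alone these were not called, at 0.26, 0.20, 0.18 and 0.11, and Sel1l also lost its call with any 1 of 3 libraries left out. Derl3 fell from 6.55 and 5.97 CPM to 3.03 and 3.35 CPM, by -0.76 ± 0.20, a call lost without alone replicate 1 (-0.69). The split of 7 and 1 was 2 and 2 with library totals alone, 5 and 2 with all 8 libraries in 1 fit, and 1 and 11 scaled to the ILC2 identity genes, where Edem1 was at -0.46.

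Among the 6 sensors and transcription factors, 3 rose and 1 fell in CD8 T cells. Eif2ak3 (chr6:70844484-70905241), which encodes PERK, had the largest rise of all members there, from 24.3 and 24.7 CPM to 69.6 and 74.8 CPM. The rise was 1.48 ± 0.08, or 2.79-fold (edgeR adjusted p = 2.0e-08). Wfs1, an ER membrane protein that restrains ATF6, was at 1.63 and 2.1 CPM alone and at 3.39 and 3.16 CPM co-cultured. Its rise of 0.73 ± 0.21 (edgeR adjusted p = 0.01) was lost without alone replicate 1 (0.55). Atf6b, a relative of ATF6, rose by 0.35 ± 0.08. Xbp1, the transcription factor gene downstream of IRE1, was at 374 and 362 CPM alone and at 299.5 and 273 CPM co-cultured, a fall of -0.44 ± 0.07. Ern1 was low in CD8 T cells, at 1.88 and 1.86 CPM alone and at 2.101 and 2.15 CPM co-cultured, and was not called.

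In ILC2s Ern1 (chr11:106397620-106487796), the IRE1 gene, was at 21.2 and 22.03 CPM alone and at 98.6 and 84.6 CPM co-cultured. It had the largest rise of all members, 2.30 ± 0.14 or 4.93-fold (edgeR adjusted p = 8.0e-08), and was at 1.16 when scaled to the ILC2 identity genes. Its target Xbp1 was at 429 and 487 CPM alone and at 332 and 344 CPM co-cultured. In CPM these groups did not overlap, but the change of -0.23 ± 0.12 was not called (edgeR adjusted p = 0.11); it was called with library totals alone (-0.44), with all 8 libraries in 1 fit (-0.38) and with at least 1 CPM required in every library (-0.28). Eif2ak3 rose from 30.5 and 29.9 CPM to 53.6 and 48.1 CPM, by 0.97 ± 0.13, and was at -0.17 scaled to the ILC2 identity genes. Wfs1 fell from 30.5 and 32.4 CPM to 15.8 and 14.8 CPM, by -0.82 ± 0.14. Atf6 was not called in either cell type, and Atf6b was not called in ILC2s. The ILC2 count of 2 higher and 1 lower was 2 and 3 with library totals alone or all 8 libraries in 1 fit, and 1 and 4 scaled to the ILC2 identity genes.

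Of the 11 translocation, signal cleavage and glycosylation genes 8 fell and 1 rose in CD8 T cells. The small subunits of the Sec61 channel fell: Sec61g was at 53.3 and 53.0 CPM alone and at 23.8 and 19.1 CPM co-cultured, by -1.39 ± 0.10 (edgeR adjusted p = 1.7e-07). Sec61b was at 63.8 and 62.0 CPM alone and at 29.8 and 26.7 CPM co-cultured, a fall of -1.24 ± 0.08. The pore subunit Sec61a1 was at 268 and 279 CPM alone and at 291 and 295 CPM co-cultured, and its change of 0.02 ± 0.07 was not called. Ostc, a subunit of the oligosaccharyltransferase, fell by -1.10 ± 0.07, and the translocon-associated genes Ssr4, Ssr2 and Ssr1 by -0.83, -0.77 and -0.55. Of the signal peptidase genes Spcs1 and Spcs2 fell by -0.60 and -0.54, while Spcs3 rose by 0.21, a call lost without alone replicate 1 (0.15), without co-cultured replicate 1 (0.17) and with all 8 libraries in 1 fit, where 8 fell and 0 rose. Ssr3 was not called.

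In ILC2s 3 of these genes rose, 4 fell and 4 were not called. Spcs1 (chr14:30999826-31001666), a small signal peptidase subunit, had the largest fall of all members in ILC2s, from 78.3 and 92.0 CPM to 25.2 and 34.3 CPM, by -1.31 ± 0.15 (edgeR adjusted p = 1.4e-05). Ssr2 fell from 149 and 172 CPM to 69.2 and 80.1 CPM, by -0.89 ± 0.13. Sec61b fell by -0.81 ± 0.14 and Ostc by -0.56 ± 0.14. Sec61a1 rose from 434 and 488 CPM to 577 and 554 CPM, by 0.51 ± 0.12, and Spcs3 and Spcs2 rose by 0.63 and 0.41, the latter a call lost with library totals alone (0.20) and without alone replicate 1 (0.35). Sec61g was at 29.9 and 32.2 CPM alone and at 17.8 and 28.5 CPM co-cultured, and was not called at -0.22 ± 0.18. The split of 3 and 4 was 2 and 5 with library totals alone and 0 and 11 scaled to the ILC2 identity genes.

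**Figure D3:**
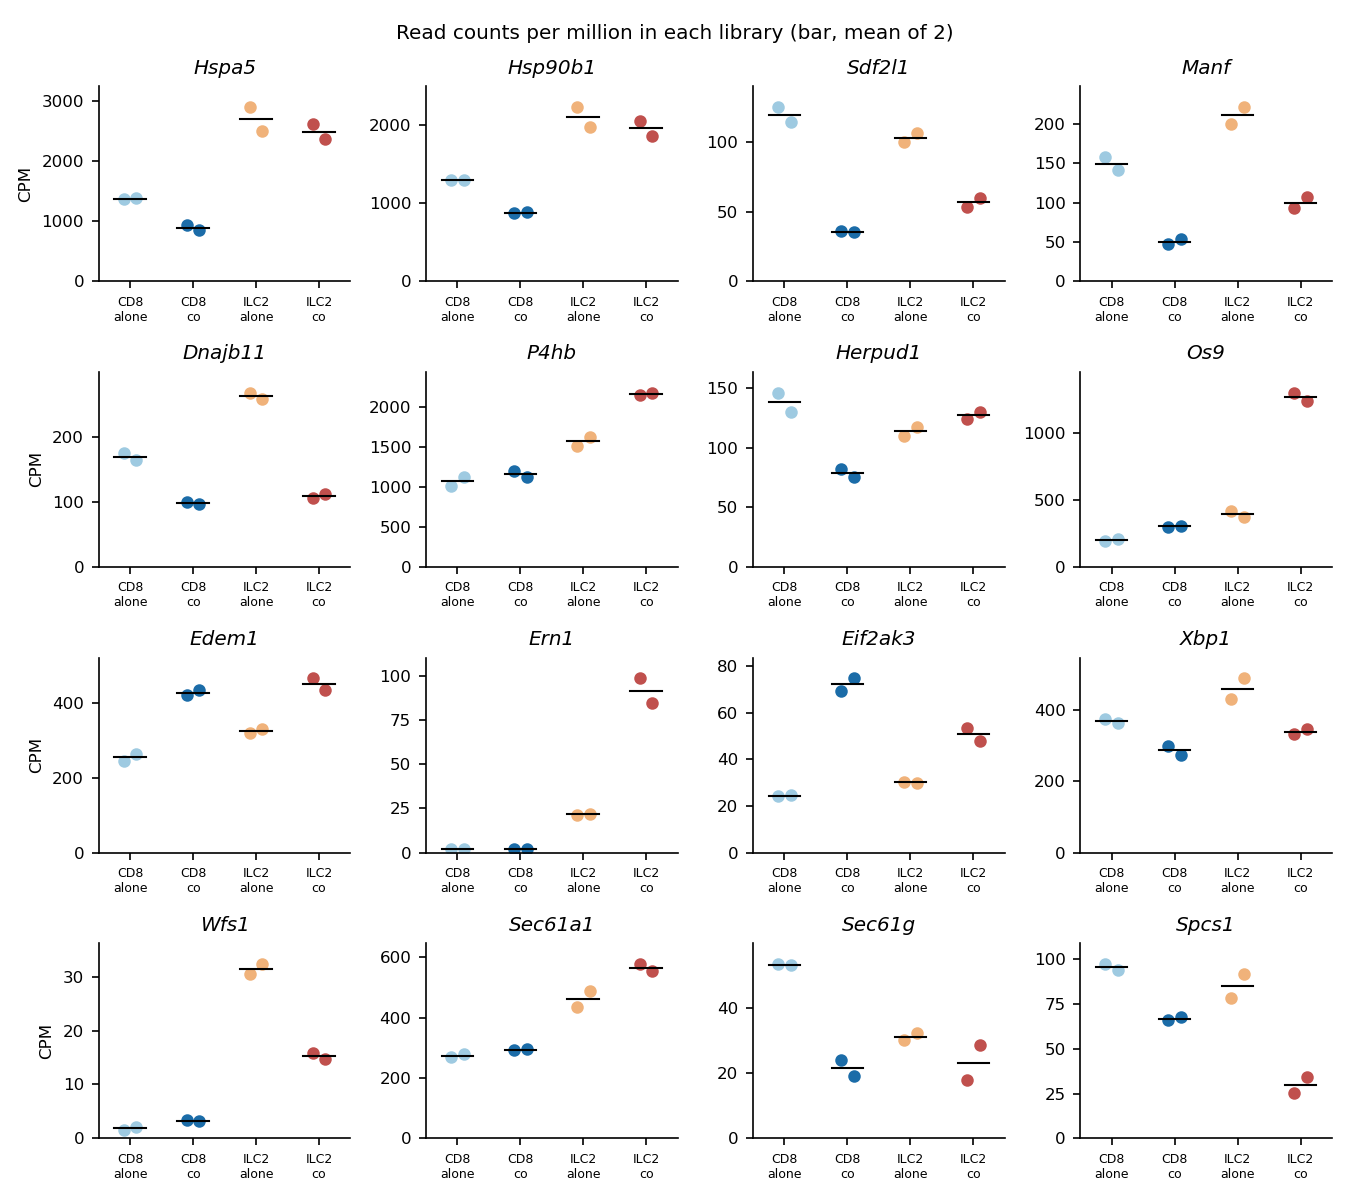
CPM (vertical axes, each from 0) of 16 members in every library, with the mean of the 2 libraries of a group as a bar; "co" marks the libraries labelled co-cultured. Hspa5 lay at 856 to 1380 CPM in CD8 T cells and at 2373 to 2905 CPM in ILC2s, and Ern1 rose in the ILC2 panel from 21.2 and 22.03 CPM to 98.6 and 84.6 CPM.

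Whether the change itself differed between the cell types was tested as the ILC2 change minus the CD8 change over all 8 libraries. These were scaled together in 1 fit, so a difference need not equal that between the changes printed above from separate fits. Edem1, for example, was at 0.67 in CD8 T cells and at 0.68 in ILC2s in the separate fits, and its difference in the joint fit was -0.14. It was positive and called for 20 members, negative and called for 6 and not called for 19, against 21% and 32.6% of all tested genes. The median difference of the members was 0.29, against -0.12 over all genes, and under RLE scaling, where the latter was 0.00, 25 members were called positive and 5 negative. The ribosomal protein genes moved the same way, with 17 of 20 positive, none negative and a median of 0.81, and their part in the members' differences was not tested. By role, chaperones gave 6 positive and 2 negative of 11, isomerases 3 and 0 of 5, degradation 5 and 0 of 12, sensors 1 and 3 of 6, and translocation 5 and 1 of 11. Hspa5 and Hsp90b1 differed by 0.65 ± 0.14 and 0.59 ± 0.13 (edgeR adjusted p = 8.6e-04 and 0.0013). Herpud1 differed by 1.11 ± 0.14, Sdf2l1 by 1.02 ± 0.14 and Selenok by 1.03 ± 0.17. The largest positive difference was that of Ern1, at 2.04 ± 0.20 (edgeR adjusted p = 4.6e-07), and the largest negative that of Wfs1, at -1.71 ± 0.22 (edgeR adjusted p = 7.9e-06). Eif2ak3 rose in both cell types and more in CD8 T cells, with a difference of -0.67 ± 0.15. The difference was not called for Xbp1, at 0.06 ± 0.14, nor for Edem1, at -0.14 ± 0.13. This test was not run with scaling to the ILC2 identity genes.

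Read member by member, 6 of 45 rose in both cell types (Edem1, Sel1l, Syvn1, Os9, Eif2ak3 and Spcs3) and 10 fell in both (Calr, Dnajb11, Sdf2l1, Manf, Creld2, Derl3, Sec61b, Ssr2, Spcs1 and Ostc). Of the 14835 genes tested in both tables, 16.9% rose in both and 17.8% fell in both. A further 5 fell in CD8 T cells and rose in ILC2s: Canx, Hyou1, Herpud1, Selenos and Spcs2, and the difference was called for each of them, where 4.54% of all genes had this pair of calls. Dnajc3 and Wfs1 went the other way, also with called differences, as did 6.33% of all genes by call. Another 12 fell in CD8 T cells and were not called in ILC2s, against 9.32% of all genes, and Atf6b rose in CD8 T cells and was not called in ILC2s, against 8.25%. P4hb, Edem2, Ern1 and Sec61a1 rose in ILC2s and were not called in CD8 T cells, against 11.8%, and no member fell in ILC2s without a call in CD8 T cells, against 9.23%. Dnajb9, Edem3, Derl1, Atf6 and Ssr3 were called in neither, against 15.9%. Most classes hold few members, and their shares were not tested against those of all genes. Scaled to the ILC2 identity genes, all the ILC2 rises named here turned negative except those of Ern1 and Os9.

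**Figure D4:**
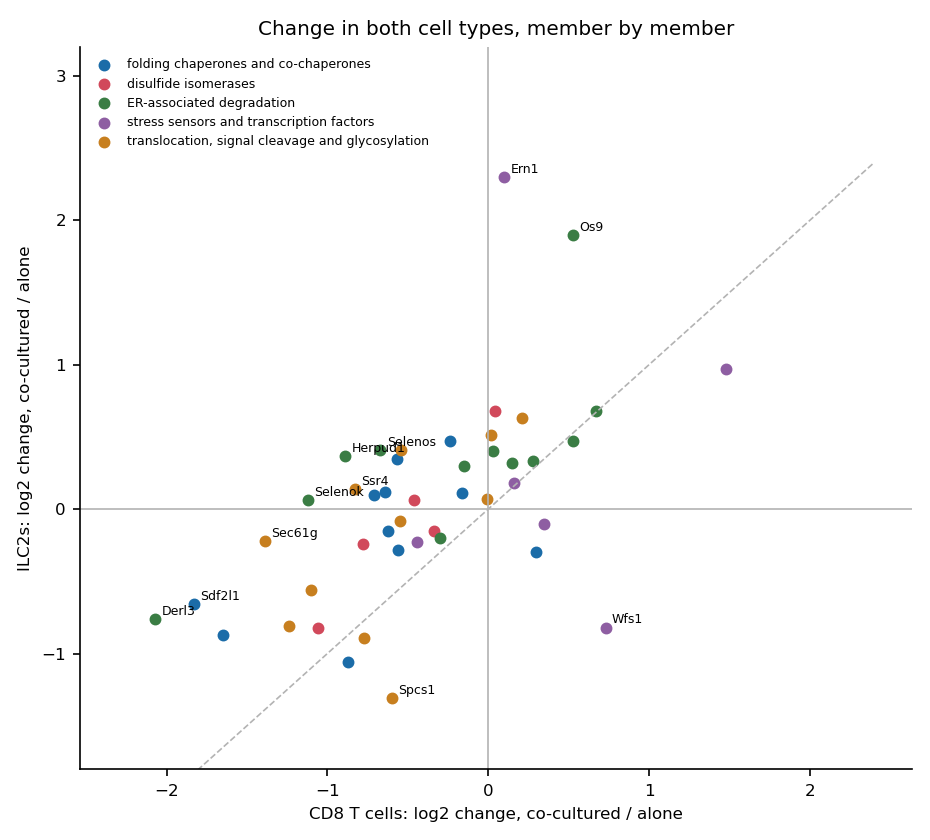
Log2 change in ILC2s (vertical) against that in CD8 T cells (horizontal) for the 45 members, coloured by role, with equal change on the dashed line. The changes are from the separate fits. Names mark called differences between cell types of at least 0.8 in size in the joint fit, which need not match the distance from the line. Ern1 and Os9 lie far above the line, and Wfs1 at 0.73 and -0.82 far below it.

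Members with an ER stress response element and those without were set side by side as a description. A member without an element is one with no exact match to the letters. Besides Vimp, the members left out for want of a window were Hyou1, Manf, Derl1, Atf6, Sec61a1, Ssr2, Spcs3 and Ostc. In CD8 T cells 9 of the 11 members with an element fell and 2, Syvn1 and Dnajc3, rose, with a median of -0.71. Of the 26 with a window and no element 14 fell and 6 rose, with a median of -0.32. The other 19 tested genes with an element had 5 lower and 5 higher and a median of 0.16. In ILC2s the members with an element had 3 higher and 5 lower and a median of -0.24, those without had 9 higher and 4 lower and a median of 0.07, and the 18 other genes had 9 higher and 4 lower and a median of 0.94. Herpud1, Canx and Syvn1 were the 3 members with an element that rose in ILC2s.

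The members' changes went with transcript length, taken as merged exons of GENCODE M21. Among CD8 T cells the members that rose had a median length of 4.86 kb and those that fell 3.1 kb. Pearson's r of change with log2 length was 0.56 and Spearman's rho 0.57 over the 45 genes, which share the same 4 libraries, while over 14479 genes they were 0.21 and 0.29. In ILC2s they were 0.46 and 0.45 over the members and 0.05 and 0.10 over 15231 genes. With the trend over all genes removed, an alternative chosen after seeing the data, 28 members fell and 7 rose in CD8 T cells, and 20 rose and 11 fell in ILC2s. Sel1l (0.03) and Dnajc3 (0.14) lost their CD8 rise, and in ILC2s Hspa5 (0.27) and Hsp90b1 (0.30) passed as higher. This fit covered all 45 members in both cell types and removed only the trend over all genes. Any part of length in the calls beyond that trend was not tested.

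**Figure D5:**
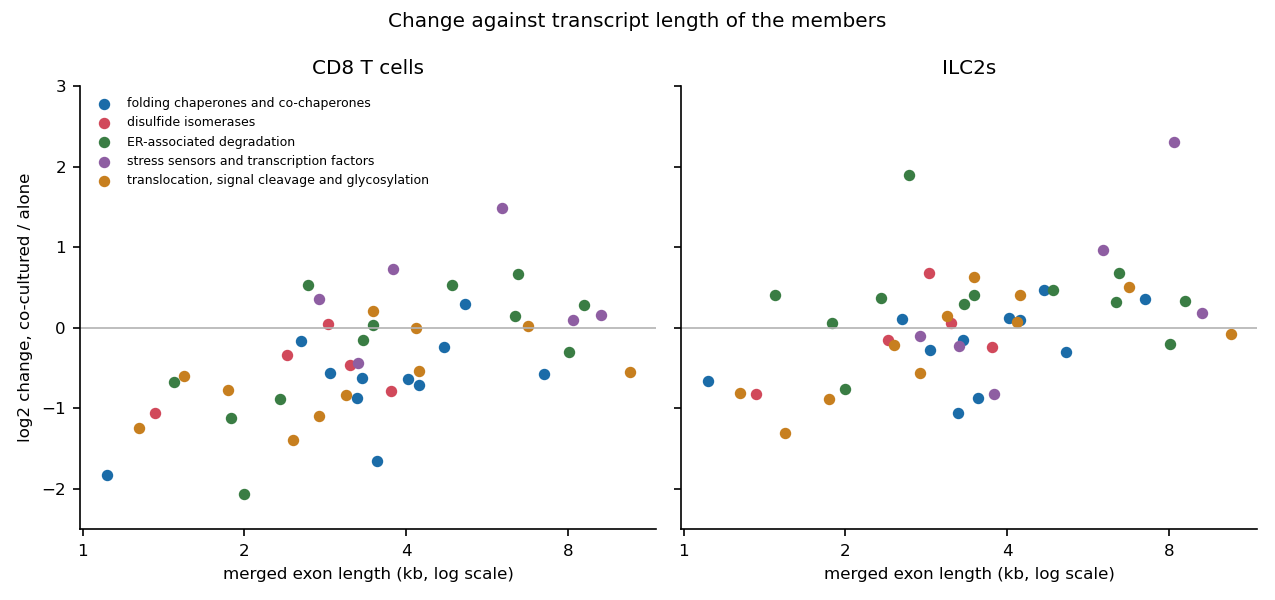
Log2 change of co-cultured over alone against merged exon length (kb, log axis) for the 45 members in CD8 T cells and ILC2s, coloured by role. Most points to the left lie below 0, as for Sdf2l1 at 1.11 kb with -1.83 and -0.66, while Eif2ak3 at 6.03 kb lies at 1.48 and 0.97.

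Other genes of the ER pathways were taken from lists kept apart from the members. The counts of these lists stand beside 30.2% higher and 30.7% lower of all tested genes in CD8 T cells, and 31.8% and 34.4% in ILC2s. They were not tested against these shares. In CD8 T cells 9 of 13 listed genes of the PERK and ATF4 branch were lower and 1 higher. The PERK gene Eif2ak3, a member and not in this list, rose there by 1.48. Chac1, a glutathione-degrading target of ATF4, went from 28.0 and 26.9 CPM to 1.41 and 2.00 CPM, by -4.09 ± 0.16, and Ppp1r15a, which reverses the PERK signal, rose by 0.33 ± 0.08, a call lost without co-cultured replicate 1 (0.24). In ILC2s the branch gave 4 higher and 6 lower of 13, and 2 and 9 scaled to the ILC2 identity genes. Ddit3, the stress factor CHOP, rose there from 21.6 and 18.7 CPM to 54.7 and 59.7 CPM, by 1.72 ± 0.13, and was at 0.58 scaled to the ILC2 identity genes. Atf4 itself fell by -1.6 ± 0.08 in CD8 T cells and rose by 0.98 ± 0.11 in ILC2s, where its value under that scaling is not given here. Chac1, Atf3 and Trib3 fell in ILC2s, by -2.03, -1.58 and -0.53. Cebpb, a factor that macrophages and fibroblasts also express, fell from 200.4 and 106 CPM to 29.8 and 27.5 CPM, by -2.20 ± 0.24.

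The other oxidative folding and prolyl isomerase genes were split, with 7 higher and 6 lower of 18 in CD8 T cells and 7 higher and 8 lower of 19 in ILC2s. Ero1l, the oxidase that recharges the disulfide isomerases, rose in ILC2s from 1050 and 1085 CPM to 12863 and 11137 CPM, by 3.71 ± 0.13 or 13.1-fold (edgeR adjusted p = 6.1e-10), and by 2.57 scaled to the ILC2 identity genes. Ero1l fell in CD8 T cells by -0.52 ± 0.07. The collagen-modifying isomerase Fkbp10 fell in ILC2s from 208 and 232 CPM to 0.454 and 0.541 CPM, by -8.57 ± 0.19, beside the stroma genes above, and rose in CD8 T cells from 0.418 and 0.561 CPM to 4.26 and 4.44 CPM, by 3.06 ± 0.25. Fkbp11, a prolyl isomerase of secretory cells, had the largest fall of the list in CD8 T cells, by -2.11 ± 0.23. Its level there was low, at 3.72 and 3.36 CPM alone and at 0.846 and 0.880 CPM co-cultured. The ILC2 split was 5 and 10 with library totals alone and 1 and 16 scaled to the ILC2 identity genes.

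Glycan quality control gave 5 higher and 2 lower of 10 in CD8 T cells, led by Uggt2, a sensor of glycoprotein folding, at 0.83 ± 0.27, and by Mogs, the first glucosidase, at -0.42 ± 0.07. Uggt2 was low there, at 1.08 and 0.911 CPM alone and at 1.60 and 2.13 CPM co-cultured. The call of Uggt2 was lost without alone replicate 2 (0.72), without co-cultured replicate 2 (0.61) and with the length trend removed (0.53), where the list had 2 higher and 3 lower. In ILC2s this list had 3 higher and 3 lower, with Prkcsh, the glucosidase II beta subunit, at 0.64 and Uggt2 at -2.18. Other translocation and signal recognition genes gave 3 higher and 8 lower of 16 in CD8 T cells (Tram1 0.39, Srp19 -1.01) and 6 higher and 5 lower in ILC2s (Tram2 2.56, Sec61a2 -0.58). The oligosaccharyltransferase, which attaches sugar chains, had 2 higher and 9 lower of 11 in CD8 T cells, with Stt3b at 0.26 and Krtcap2 at -0.97, and 2 higher and 4 lower in ILC2s, with Rpn2 at 0.75 and Rpn1 at -0.94. Scaled to the ILC2 identity genes, these 3 lists had 0 and 10, 1 and 14, and 0 and 11 genes higher and lower, and with library totals alone 1 and 4, 5 and 7, and 1 and 4. Under RLE or upper quartile scaling the oligosaccharyltransferase had 4 and 3 in ILC2s, and with the length trend removed 6 and 1.

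Genes of degradation and of traffic out of the ER rose more often in CD8 T cells than they fell. The other degradation genes gave 11 higher and 4 lower of 19, and 11 and 2 with library totals alone, with Herpud2, a relative of Herpud1, at 0.86 and the p97 cofactor gene Ufd1 at -0.46. ER to Golgi transport gave 17 higher and 5 lower of 23, with the retrieval receptor Kdelr3 at 1.31 and the cargo receptor Tmed10 at -0.74. In ILC2s these lists had 7 higher and 3 lower of 19 (Herpud2 1.09, Jkamp -0.66) and 12 higher and 4 lower of 23 (Sec24a 1.78, Sec13 -1.35). These became 6 and 5, and 7 and 4, with library totals alone; the degradation list had 6 and 5 with all 8 libraries in 1 fit and 13 and 3 with the length trend removed. Scaled to the ILC2 identity genes, they were 0 and 16, and 1 and 19.

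The other ER-bound transcription factors and their proteases gave 2 higher and 5 lower of 10 in CD8 T cells, or 3 and 3 with library totals alone. Creb3l2 rose by 1.21 and Mbtps2, the site-2 protease that releases ATF6, fell by -0.77. In ILC2s 3 rose and 5 fell, with Creb3l2 at 1.33 and Creb3l1 at -3.74, and 0 rose and 7 fell scaled to the ILC2 identity genes. Cytosolic and mitochondrial chaperones, the comparison outside the ER, fell in both: 17 of 23 lower and 3 higher in CD8 T cells, and 19 lower and 2 higher in ILC2s. The mitochondrial co-chaperonin Hspe1 went from 106 and 83.0 CPM to 24.4 and 24.4 CPM in CD8 T cells, by -2.04 ± 0.11. The small heat shock gene Hspb1 had the largest fall in ILC2s, from 32.3 and 29.1 CPM to 0.97 and 1.06 CPM, and Hspa4l, a cytosolic HSP110 relative, rose in both, by 0.94 and 0.74.

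The levels of the members were also set side by side between the cell types, whose tables were deposited and scaled apart, so no test was made. In the libraries labelled alone, 36 of 45 members had both ILC2 libraries above both CD8 T cell libraries in CPM, and 7 (Sdf2l1, Herpud1, Sec61b, Sec61g, Spcs1, Spcs2 and Ostc) had them below, against 40.6% and 42.2% of the 15532 genes of the interaction test. In the co-cultured libraries 35 lay above and 6 below, the latter being Dnajc3, Derl2, Eif2ak3, Atf6b, Ssr2 and Spcs1, against 34.3% and 49.2% of those genes. Per kb of merged exon, the highest mean levels in ILC2s labelled alone were those of Hspa5 at 639 CPM per kb, Calr at 635 and P4hb at 548, and in CD8 T cells labelled alone those of P4hb at 373, Calr at 362 and Hspa5 at 326. In the co-cultured libraries P4hb led in both, with 756 CPM per kb in ILC2s and 406 in CD8 T cells. Ern1 had the lowest mean level in CD8 T cells labelled alone, at 0.229 CPM per kb, and was at 2.64 in ILC2s labelled alone and at 11.2 in ILC2s labelled co-cultured.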

How the data were processed

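The authors' files hold raw read counts per gene, in a deposited table for each cell type with 4 libraries, per the file headers. Trizol served for extraction and a low-input SMART-Seq v4 kit for the libraries, per the labels' protocols. The build mm10 and the tools StringTie 2.1.3b, SAMtools 1.9, HISAT2 2.1.0 and Trimmomatic 0.38 are named, per the submitters' processing notes. Annotation, strand setting and filters were not given in the sources used here. Since 0 does not occur among the deposited counts, a gene with no read in a library is not in that table.

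Each table was tested whole by the quasi-likelihood method of edgeR 4.0.16 (R 4.3.3) after filterByExpr and TMM scaling, with p adjusted by Benjamini-Hochberg and a threshold of 0.05. The CD8 T cell test covered 15948 genes, the ILC2 test 16739 and the interaction, over 8 libraries, 15532. Residual degrees of freedom were 2, 2 and 4, and prior ones 10.4, 9.2 and 11.5, so each p rests largely on the spread of other genes. The SE is the log2 change over the square root of F. The script was tested on simulated data. Alternatives were other scalings and filters, DESeq2 1.42.0, limma-voom (limma 3.58.1), a replicate block and leaving out each library. Scaling to the ILC2 identity genes set the geometric mean of their counts equal between libraries. The list was Gata3, Il1rl1, Rora, Il5, Il13, Klrg1, Il17rb, Icos, Id2, Il2ra, Il7r, Areg, Hs3st1, Arg1, Ptgdr2, Calca, Nmur1, Kit, Bcl11b and Tcf7. Of the 19 tested in ILC2s 16 rose, with a median of 1.46. Any rise of these genes within the cells is carried by this scaling into every other value as a fall, and its part was not tested. Gene positions and promoter sequences are from RefSeq (GRCm38.p6), and exon lengths from GENCODE M21. Replicates differed beyond sampling noise (chi-square per gene 12.54 to 25.9), and Pearson's r of their log2 CPM across genes was 0.9843 to 0.9934. Values per library are printed for the 5 largest called rises and falls per table, the best known member of each role and the extremes of the interaction, with some others chosen after their values were seen. From each pathway list, the called gene with the largest rise and with the largest fall per table are named. For the PERK and ATF4 branch Atf4, Atf3 and Trib3, and Chac1 in ILC2s, are given as well. The members and lists were chosen with earlier results of these data known.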

Additional observations from a re-analysis of the deposited data

Results flagged for a closer look

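For 26 members the change with co-culture differed between ILC2s and CD8 T cells by edgeR's interaction test (adjusted p under 0.05). The values below are the ILC2 change minus the CD8 change on the log2 scale, from the joint fit of all 8 libraries. They need not equal the difference between the changes of the separate fits. The largest positive differences were those of Ern1 at 2.04, Os9 at 1.20, Derl3 at 1.15, Herpud1 at 1.11, Selenok at 1.03, Sdf2l1 at 1.02 and Sec61g at 1.01. Smaller ones were those of Selenos at 0.91, Ssr4 at 0.80, Spcs2 at 0.79, Hyou1 at 0.77, Hspa5 at 0.65 and Manf at 0.62. The smallest called were those of Hsp90b1 at 0.59, Canx at 0.55, P4hb at 0.48, Ostc at 0.38, Pdia6 at 0.38, Pdia3 at 0.36 and Sec61a1 at 0.33. The negative differences were those of Wfs1 at -1.71, Spcs1 at -0.87, Dnajc3 at -0.75, Eif2ak3 at -0.67, Atf6b at -0.61 and Dnajb11 at -0.35. Each side has 2 libraries per group, the ILC2 libraries labelled alone held more stroma, macrophage and T cell transcripts, and 17 of 20 ribosomal protein genes also differed positively, with a median of 0.81. The part of these in the members' differences was not tested. The calls of Pdia3, Sec61a1, Ostc and Dnajb11 were each lost under several settings, those of Pdia6 without CD8 alone replicate 2 (0.33) or CD8 co-cultured replicate 2 (0.35), and that of Derl3 without CD8 co-cultured replicate 1 (0.91).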

How the results depend on the processing

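Over all gene values and settings, 2276 kept their side of the threshold without a reversal, 81 lost the call, 65 gained it and 28 reversed. For members, a change of sign counted as a reversal only with a call in the main or the other fit. The 2276 can therefore include changes of sign that were uncalled in both. In CD8 T cells the main count was 36 members called, 9 higher and 27 lower; with at least 1.5-fold required it was 21, with 3 higher. In ILC2s the main count was 27 called, 15 higher and 12 lower; with at least 1.5-fold required it was 15, with 6 higher. With library totals alone 7 ILC2 members were higher and 19 lower, and with all 8 libraries in 1 fit 19 were lower. Scaled to the ILC2 identity genes 44 were called, 2 higher and 42 lower. That scaling lowers every ILC2 change by about the same amount, as its construction gives, and reversed these member values: Hspa5 -1.04, Hsp90b1 -1.03, Canx -0.68, Hyou1 -0.79, Dnajb9 -1.03, Pdia3 -1.09, P4hb -0.46, Herpud1 -0.77, Edem1 -0.46, Edem2 -0.74, Edem3 -0.82, Sel1l -0.81, Syvn1 -0.67, Derl1 -0.84, Selenos -0.73, Selenok -1.07, Eif2ak3 -0.17, Atf6 -0.96, Sec61a1 -0.63, Ssr3 -1.07, Ssr4 -1.0, Spcs2 -0.73 and Spcs3 -0.51. Among the pathway genes with the largest called rise or fall of their list, it also reversed Prkcsh -0.50, Rpn2 -0.39, Herpud2 -0.05 and Hspa4l -0.40. With the length trend removed, the CD8 value of Sec61a1, uncalled at 0.02, was -0.19. Leaving out 1 library at a time gave 9 to 16 ILC2 members higher, with the 9 without ILC2 alone replicate 1; the cause was not tested. With the replicate block, CD8 T cells had 9 members higher and 27 lower, with 16 and 12 in ILC2s, and 19 and 6 in the interaction. The libraries share only a number: the deviations of same-numbered libraries correlated at -0.028 in CD8 T cells and 0.04 in ILC2s. Among the members, depth limits Derl3, Wfs1 and Ern1 in CD8 T cells most, where levels were 0.393 to 3.39 CPM.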
